A study of Mus musculus with 2 samples.

Results

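The genes described here are 40 genes of the machinery that releases neurotransmitter from synaptic vesicles, of 32285 genes in the deposited count matrices. They were taken by gene symbol from a list of SNARE proteins, synaptotagmins, complexins, synapsins, active zone proteins, vesicle membrane proteins and vesicular glutamate transporters, and all 40 were found in both matrices. Nuclei were isolated from hippocampal tissue of mice aged 8 months and sequenced with a droplet 3′ RNA assay that counts unique molecular identifiers (UMIs), 1 per captured RNA molecule. One library came from mice labelled as a cross of 5XFAD with an MR1 knockout, and 1 library came from 5XFAD mice; each pooled 1 male and 1 female mouse. 5XFAD mice are a transgenic model of Alzheimer's disease, driven by the neuronal Thy1 promoter, and accumulate amyloid. MR1 is the molecule that presents antigen to mucosal-associated invariant T cells. Both groups carry the 5XFAD transgenes, so neither is a healthy control. With 1 library per group no test between the genotypes was possible, and every interval given is a 95% interval that covers counting error only.

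A vesicle fuses with the presynaptic membrane when a SNARE on the vesicle (synaptobrevin, encoded by the Vamp genes) zips together with SNAREs on the membrane (syntaxin and SNAP-25). Proteins of the active zone and of the Munc13 family dock and prime the vesicle, complexin holds the primed complex, and synaptotagmin triggers fusion when calcium enters. Neuron types are known to differ in which paralog of each family they use, for example in the calcium sensor and in the transporter that fills the vesicle.

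The library labelled MR1 KO held 17476 nuclei and 57749596 UMIs after filtering, and the 5XFAD library held 12277 nuclei and 58294274 UMIs. The mitochondrial limit removed 8.92% of barcodes in the library labelled MR1 KO and 35.8% in the 5XFAD library. The libraries shared 182 cell barcodes. Mr1 had 68 UMIs in the library labelled MR1 KO and 37 UMIs in the 5XFAD library, a ratio scaled to all UMIs of 1.86 (1.23 to 2.85). This goes against the label, although a 3′ or intronic read can lie outside a deleted part and says nothing of the protein. Neuron types were rebuilt by clustering without the 40 genes and named from marker genes; each name stands for nuclei like that type, and the other clusters are called by their leading genes. Of these, Foxp2 and Tshz1 neurons had 3 markers of Drd1 medium spiny neurons among their top 50 genes (Drd1, Rgs9 and Tac1), and Fn1 and Rab38 neurons had 3 of CA1 neurons (Pex5l, Pde11a and Gpr161); neither was named. A level in both libraries could be given for 15 neuron types, of which 9 were named. The 40 genes held 1.16% of neuronal UMIs in the library labelled MR1 KO and 1.14% in the 5XFAD library. Levels are in UMI counts scaled to the UMIs of that neuron type (CPM), are not scaled to gene length, and are compared between types for 1 gene at a time.

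Promoter sequences (250 bases before a RefSeq transcription start, GRCm38.p6) were found for 31 of the 40 genes, 42 promoters in all. They were rich in G and C, with a median of 59.8% against 52.4% over all 32851 mouse promoters. Printed below are Sv2a and Sv2b, a paralog pair of which one was higher in interneurons and the other in CA1, CA2/CA3 and deep-layer neurons, Syt2, whose RNA was concentrated in 1 interneuron type, and Syn1, the member whose promoter held most of the searched motifs. Capitals mark a motif found on either strand. The motifs searched were TCAGCACC, the letters that begin the RE1 element bound by the neuronal repressor REST, TGACGTCA, the cyclic AMP response element, GGGGCGGGG, the GC box, and TATAAA, the TATA box. All are given 5′ to 3′ on the strand of the gene.
Sv2a promoter (chr3:96180977-96181226, plus strand): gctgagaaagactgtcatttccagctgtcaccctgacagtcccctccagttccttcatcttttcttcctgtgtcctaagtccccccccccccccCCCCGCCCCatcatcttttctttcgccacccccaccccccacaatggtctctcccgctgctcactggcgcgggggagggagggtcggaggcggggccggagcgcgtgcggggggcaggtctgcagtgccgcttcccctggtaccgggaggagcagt
Sv2b promoter of its outermost start (chr7:75309263-75309512, minus strand): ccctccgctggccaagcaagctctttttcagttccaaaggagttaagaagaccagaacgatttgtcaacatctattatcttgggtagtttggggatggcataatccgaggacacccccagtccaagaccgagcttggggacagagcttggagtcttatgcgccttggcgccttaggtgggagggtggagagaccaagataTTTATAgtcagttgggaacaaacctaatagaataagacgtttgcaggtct
Syt2 promoter of its outermost start (chr1:134646362-134646611, plus strand): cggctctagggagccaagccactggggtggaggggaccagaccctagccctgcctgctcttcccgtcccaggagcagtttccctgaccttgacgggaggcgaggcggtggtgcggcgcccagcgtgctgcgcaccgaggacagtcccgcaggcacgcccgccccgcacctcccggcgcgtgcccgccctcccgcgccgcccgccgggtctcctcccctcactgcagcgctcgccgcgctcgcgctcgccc
Syn1 promoter (chrX:20920919-20921168, minus strand): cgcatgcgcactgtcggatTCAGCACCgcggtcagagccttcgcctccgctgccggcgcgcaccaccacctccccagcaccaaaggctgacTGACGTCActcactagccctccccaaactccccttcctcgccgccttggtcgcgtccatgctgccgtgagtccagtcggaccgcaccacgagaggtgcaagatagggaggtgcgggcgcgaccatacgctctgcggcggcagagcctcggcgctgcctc
The Sv2a promoter was 66.0% G and C, the Syt2 promoter 76.0% and the Sv2b promoter 48.8%. The capitals in Sv2a are the GC box, those in Sv2b the TATA box and those in Syn1 the RE1 letters and the cyclic AMP response element. Syn1, the gene of synapsin 1, was the only member with TCAGCACC, which 1.32% of all promoters held, and the only member with TGACGTCA, which 1.55% held. The GC box was in 10 of 42 member promoters and in 10.4% of all, and the TATA letters were in 2 of 42, both of Sv2b, and in 12.4% of all. A match describes letters only.

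The SNAREs and their helpers had UMIs in every neuron type. Snap25, the gene of SNAP-25, ranged over the 15 types from 667 CPM in Pvalb interneurons to 1432 CPM in Fn1 and Rab38 neurons in the library labelled MR1 KO, and from 601 CPM in Adarb2 interneurons to 1215 CPM in deep-layer excitatory neurons in the 5XFAD library. The vesicle SNARE Vamp1 was highest, of the named types, in Pvalb interneurons, at 33.3 CPM (24.7 to 44.1) in the library labelled MR1 KO and 26.1 CPM (18.5 to 35.9) in the 5XFAD library. Its paralog Vamp2 was highest in Foxp2 and Tshz1 neurons, at 125 CPM in the library labelled MR1 KO and 92.6 CPM in the 5XFAD library. With each nucleus thinned to 1000 UMIs, this changed to Tshz2 neurons (MR1 KO-labelled) and Lamp5 interneurons (5XFAD). Stx1a, the gene of syntaxin 1A, had 56.6 CPM in the library labelled MR1 KO and 59.3 CPM in the 5XFAD library in deep-layer neurons. In Lamp5 interneurons it had 17.1 CPM in MR1 KO-labelled and 19.8 CPM in 5XFAD nuclei. Nsf, the ATPase that takes spent SNARE complexes apart, was highest in dentate granule neurons, at 453 CPM in the library labelled MR1 KO and 471 CPM in the 5XFAD library. Napb, its adaptor beta-SNAP, varied little between types, at 67.9 to 117 CPM in the library labelled MR1 KO and 64.3 to 105 CPM in the 5XFAD library.

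The calcium sensors divided the neuron types more sharply. Syt1, the fast sensor of most forebrain synapses, was present throughout, from 2129 to 3742 CPM in the library labelled MR1 KO and from 2443 to 4212 CPM in the 5XFAD library, lowest in Vwc2l and Sntb1 neurons and highest in Lamp5 interneurons in both. Syt2, the fast sensor of fast-spiking interneurons, had 64.6 CPM (52.3 to 79) in the library labelled MR1 KO and 85.3 CPM (70.9 to 102) in the 5XFAD library in Pvalb interneurons. The next named type, the Sst interneurons, had 8.55 CPM in MR1 KO-labelled and 7.96 CPM in 5XFAD nuclei. In Pvalb interneurons of single mice Syt2 was 56 CPM in the female and 92.5 CPM in the male mouse labelled MR1 KO, against 83.4 CPM in the female and 95.2 CPM in the male 5XFAD mouse, so all 4 mice shared the pattern. Per nucleus, Syt2 in Pvalb interneurons was 114 times its glial level in the library labelled MR1 KO and 53.3 times in the 5XFAD library. The gene lies at chr1:134646677-134762593 (GRCm38). Syt7, the slow high-affinity sensor of facilitation, was high in dentate granule neurons, with 239 CPM in MR1 KO-labelled and 222 CPM in 5XFAD nuclei, and lowest in Adarb2 interneurons, with 40.8 CPM in MR1 KO-labelled and 41.6 CPM in 5XFAD nuclei. Syt5 peaked in Foxp2 and Tshz1 neurons at 148 CPM in the library labelled MR1 KO and 128 CPM in the 5XFAD library, and Syt10 in Tshz2 neurons at 62.6 CPM in the library labelled MR1 KO and 37.7 CPM in the 5XFAD library. Syt13, a synaptotagmin that binds no calcium, was highest in granule neurons, at 85.3 CPM in the library labelled MR1 KO and 70.4 CPM in the 5XFAD library. When each nucleus was thinned to 1000 UMIs, the highest types of Syt5 and Syt13 changed in both libraries. Syt13 was then highest in Sst interneurons in the library labelled MR1 KO and in Rmst and Meis1 neurons in the 5XFAD library. Doc2b, a high-affinity sensor of spontaneous release, had 40.5 CPM in MR1 KO-labelled and 33.9 CPM in 5XFAD nuclei in granule neurons and 32.9 CPM in MR1 KO-labelled and 33.9 CPM in 5XFAD nuclei in CA1 neurons, and in CA2/CA3 neurons was 6.3 CPM in MR1 KO-labelled and 3.66 CPM in 5XFAD nuclei. Syt4, another synaptotagmin, ranged over 48.4 to 136 CPM in the library labelled MR1 KO and over 43.8 to 107 CPM in the 5XFAD library.

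**Figure D1:**
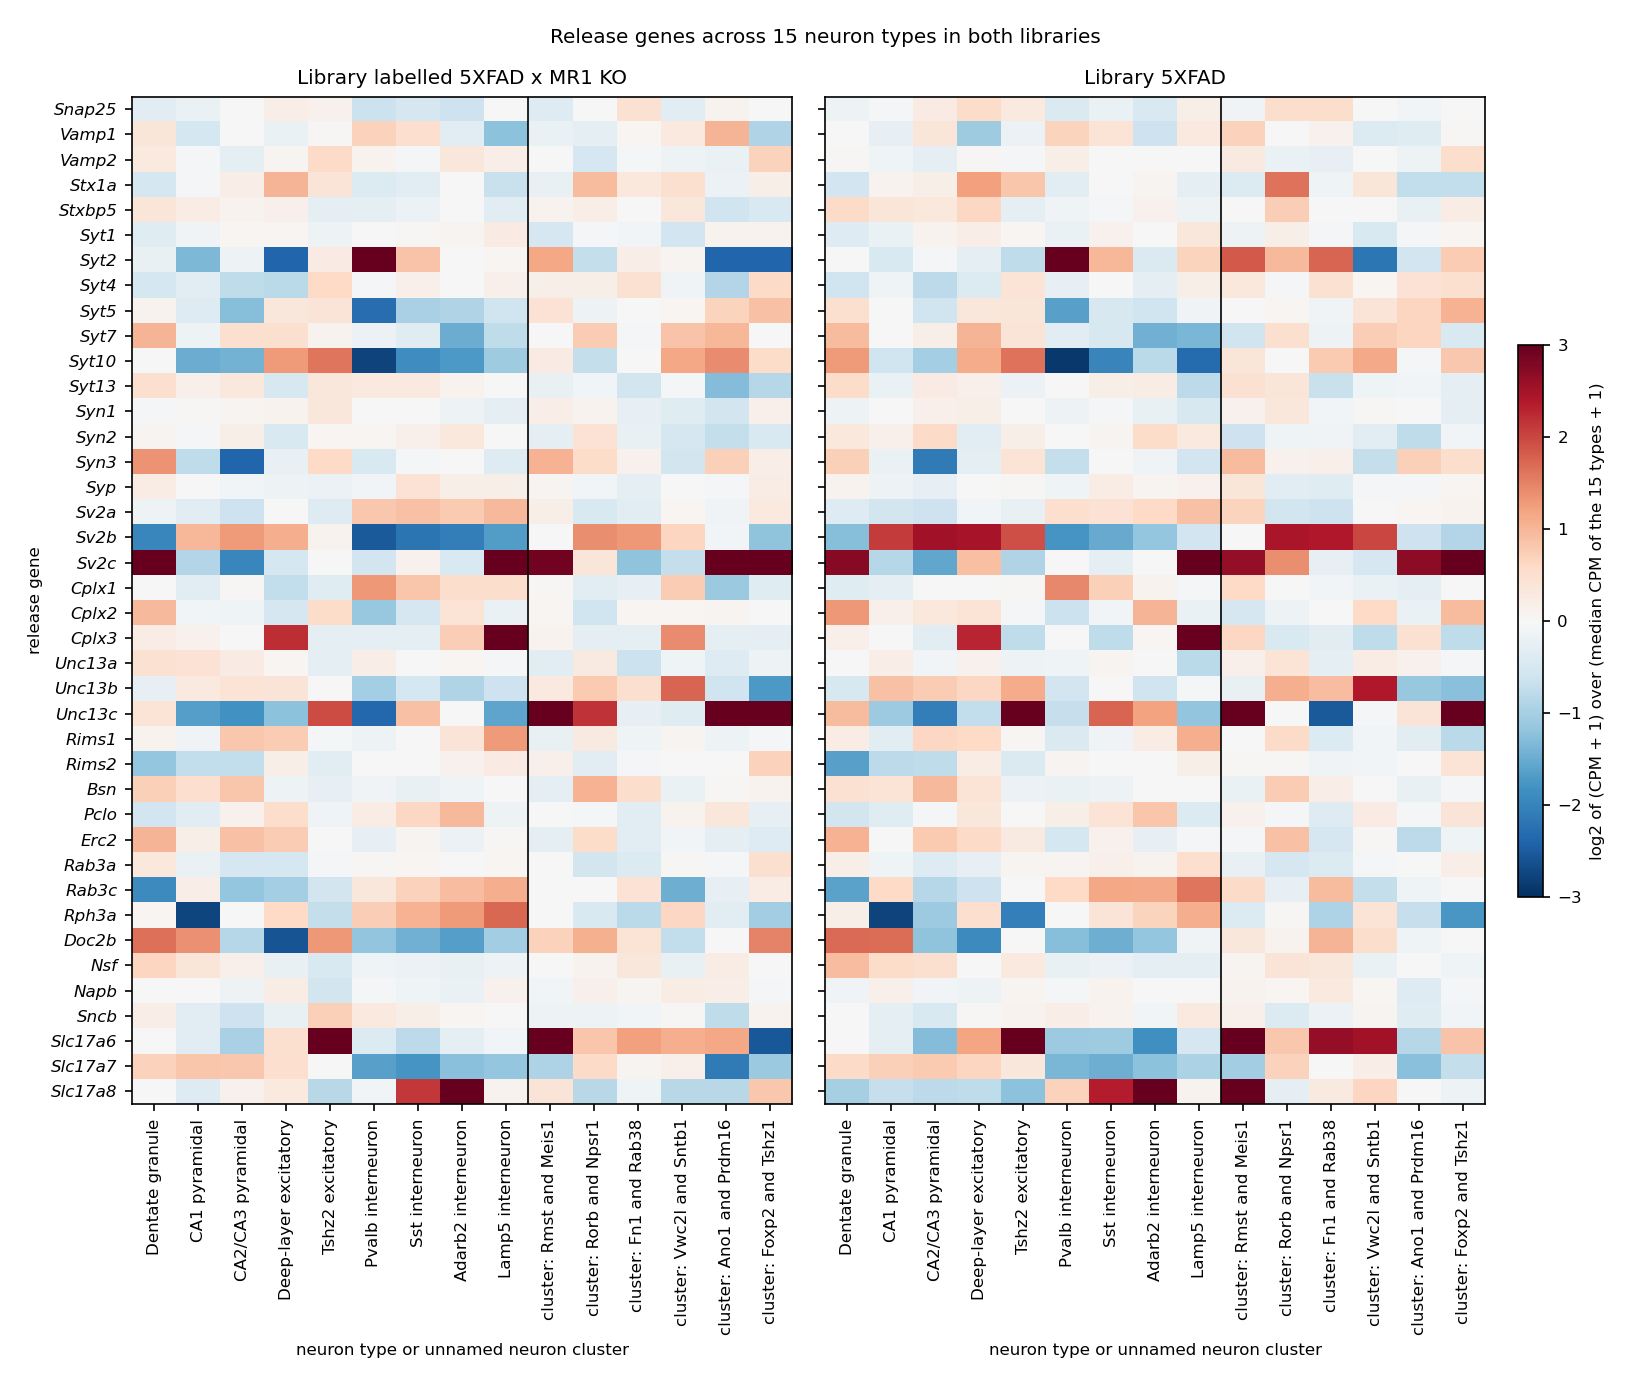
Level of each of the 40 genes (rows, grouped by role) in the 15 neuron types with a level in both libraries (columns), as log2 of CPM + 1 over the gene's median of the 15 types + 1 (colour, red higher and blue lower), with the library labelled MR1 KO left of the 5XFAD library. Syt2 stands out in Pvalb interneurons, Slc17a8 in Adarb2 interneurons and Sv2c in Lamp5 interneurons and Foxp2 and Tshz1 neurons in both libraries.

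Complexins clamp and then promote SNARE zippering. Cplx1 was highest in Pvalb interneurons, at 101 CPM (85.7 to 119) in the library labelled MR1 KO and 96.9 CPM (81.6 to 114) in the 5XFAD library. Cplx2 was lowest in the same type, at 38.1 CPM in MR1 KO-labelled and 39.9 CPM in 5XFAD nuclei. Cplx2 was highest in dentate granule neurons, at 170.4 CPM (162 to 179) in the library labelled MR1 KO and 156 CPM (146 to 166) in the 5XFAD library. In Adarb2 interneurons it had 115 CPM in MR1 KO-labelled and 129 CPM in 5XFAD nuclei, and oligodendrocytes were close to the granule level, with 143 CPM in MR1 KO-labelled and 148 CPM in 5XFAD nuclei. Cplx3, known from retinal ribbon synapses, was highest in Lamp5 interneurons, with 12 UMIs or 10.8 CPM in the library labelled MR1 KO and 8 UMIs or 12.2 CPM in the 5XFAD library, and next in deep-layer neurons, with 4 UMIs in MR1 KO-labelled and 19 in 5XFAD nuclei. The wide intervals of such counts allow no ordering of these levels between libraries.

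The Munc13 paralogs differed in how evenly they were distributed. Unc13a, the main primer of glutamatergic synapses, ranged only from 40.1 to 87.0 CPM in the library labelled MR1 KO and from 39.6 to 94.5 CPM in the 5XFAD library. Unc13b was highest in Vwc2l and Sntb1 neurons, at 408 CPM (351 to 473) in the library labelled MR1 KO and 459.5 CPM (413 to 510.5) in the 5XFAD library, and lowest in Foxp2 and Tshz1 neurons, at 35.5 CPM in MR1 KO-labelled and 35.3 CPM in 5XFAD nuclei. Unc13c, known from cerebellar granule cells, had 290.4 CPM in the library labelled MR1 KO and 414 CPM in the 5XFAD library in the same Foxp2 and Tshz1 neurons. In Tshz2 neurons Unc13b had 120.1 CPM in MR1 KO-labelled and 186 CPM in 5XFAD nuclei, and Unc13c 73.1 CPM in MR1 KO-labelled and 136 CPM in 5XFAD nuclei. In Ano1 and Prdm16 neurons it had 345 CPM in the library labelled MR1 KO and 19.98 CPM in the 5XFAD library, counted over 50 nuclei labelled MR1 KO and 605 5XFAD nuclei. Of known sex, the Ano1 and Prdm16 nuclei came mostly from the female mouse labelled MR1 KO, with 24 female and 0 male nuclei, and from the male 5XFAD mouse, with 1 female and 428 male nuclei, so sex and library cannot be told apart there. Unc13c was also high in oligodendrocyte precursors, a glial type, at 337 CPM in MR1 KO-labelled and 313 CPM in 5XFAD nuclei, and in the neurons named as Drd1 medium spiny, of which 4 nuclei were MR1 KO-labelled and 714 were 5XFAD nuclei, at 741 CPM in the 5XFAD library.

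The active zone genes Rims1, Rims2, Erc2 and Pclo each had the same highest neuron type in both libraries. Rims1, the scaffold that tethers vesicles to calcium channels, was highest in Lamp5 interneurons, at 2195 CPM in the library labelled MR1 KO and 2315 CPM in the 5XFAD library, and next highest in CA2/CA3 neurons, at 1578 CPM in MR1 KO-labelled and 1680.0 CPM in 5XFAD nuclei. Its paralog Rims2 was highest in Foxp2 and Tshz1 neurons, at 1254 CPM in the library labelled MR1 KO and 1162 CPM in the 5XFAD library, and lowest in granule neurons, at 348 CPM in MR1 KO-labelled and 286 CPM in 5XFAD nuclei. Erc2, which binds RIM and Munc13 in the active zone, was highest in granule neurons, at 1902 CPM in the library labelled MR1 KO and 2109.8 CPM in the 5XFAD library. Pclo, the giant scaffold Piccolo, was highest in Adarb2 interneurons, at 1199.7 CPM in the library labelled MR1 KO and 1065 CPM in the 5XFAD library, and lowest in granule neurons, at 408 CPM in MR1 KO-labelled and 413 CPM in 5XFAD nuclei. Bsn, its relative Bassoon, had a different highest type in each library and was high in CA2/CA3 neurons, at 190.1 CPM in MR1 KO-labelled and 206 CPM in 5XFAD nuclei, and in Rorb and Npsr1 neurons, at 220.4 CPM in MR1 KO-labelled and 179 CPM in 5XFAD nuclei.

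Among the proteins of the vesicle itself, the SV2 paralogs differed between neuron types. SV2A is the target of the antiseizure drug levetiracetam, and SV2C is a receptor of botulinum toxin A. Sv2a was the only one of the 40 genes whose lowest inhibitory level exceeded its highest excitatory level in both libraries, over the 4 named interneuron types and the 4 named excitatory types with at least 100 nuclei in each library. It ranged over 215 to 246 CPM in interneurons and 80.5 to 124 CPM in excitatory types in the library labelled MR1 KO, and over 165 to 226 CPM and 79.9 to 117 CPM in the 5XFAD library. Outside these types, Rmst and Meis1 neurons had 195.6 CPM of Sv2a in the 5XFAD library, above the lowest interneuron level. Sv2b was the reverse in pyramidal and deep-layer neurons, with 386 CPM in the library labelled MR1 KO and 366 CPM in the 5XFAD library in CA1 neurons. In CA2/CA3 neurons it had 466 CPM in MR1 KO-labelled and 489 CPM in 5XFAD nuclei, and in Pvalb interneurons 32.7 CPM in MR1 KO-labelled and 24.1 CPM in 5XFAD nuclei. Granule neurons, although excitatory, sat with the interneurons at 48.7 CPM in MR1 KO-labelled and 34.4 CPM in 5XFAD nuclei for Sv2b, so its classes overlapped. Sv2c marked Lamp5 interneurons, at 184 CPM (160.1 to 212) in the library labelled MR1 KO and 155 CPM (127 to 189) in the 5XFAD library, and Foxp2 and Tshz1 neurons, at 274 CPM in MR1 KO-labelled and 147 CPM in 5XFAD nuclei. It also reached 135 CPM in the library labelled MR1 KO and 83.5 CPM in the 5XFAD library in granule neurons and was 3.26 CPM in MR1 KO-labelled and 3.31 CPM in 5XFAD nuclei in CA2/CA3 neurons. In Lamp5 interneurons of single mice Sv2c was 204 CPM in the female and 183 CPM in the male mouse labelled MR1 KO, against 136 CPM in the female and 168 CPM in the male 5XFAD mouse, so all 4 mice were far above the CA2/CA3 levels of either library.

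**Figure D2:**
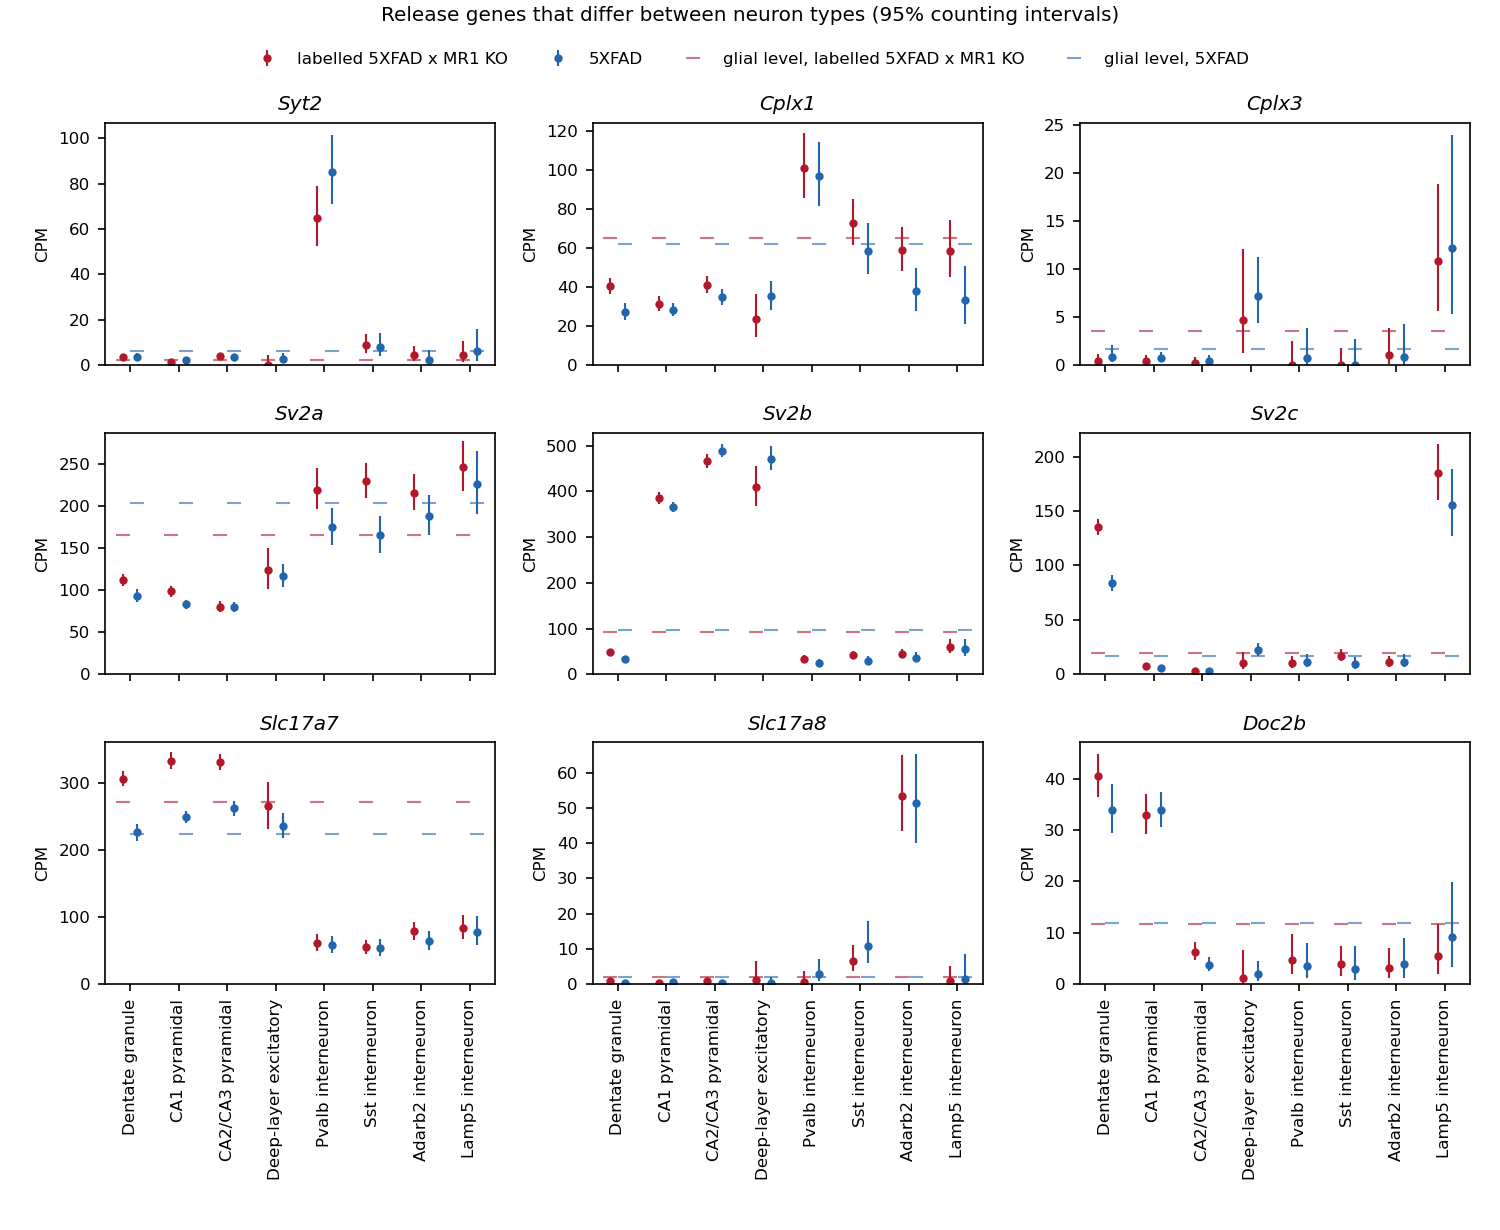
CPM (vertical axis) of 9 release genes, 1 per panel, in 8 named neuron types (horizontal axis), the library labelled MR1 KO (red) left of the 5XFAD library (blue). Points carry 95% counting intervals and dashes give the higher of the oligodendrocyte and microglia CPM of that library (3 counts where both are 0). Syt2 stands far above its dashes in Pvalb interneurons and slightly above in Sst interneurons, Slc17a8 above its dashes in Adarb2 and Sst interneurons, and Sv2b in CA1, CA2/CA3 and deep-layer neurons, while Sv2a in interneurons lies near its dashes.

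Synapsins, which bundle vesicles in the reserve pool, also differed by paralog. Syn1 was even, at 90.7 to 167 CPM in the library labelled MR1 KO and 94.5 to 168 CPM in the 5XFAD library, and Syn2 spanned 387 to 864 CPM in MR1 KO-labelled and 296 to 746 CPM in 5XFAD types. Syn3, the paralog linked to immature neurons, was highest of the named types in granule neurons, at 289.5 CPM (279 to 301) in the library labelled MR1 KO and 167 CPM (157 to 178) in the 5XFAD library, and lowest in CA2/CA3 neurons, at 21 CPM in MR1 KO-labelled and 22.3 CPM in 5XFAD nuclei. Rab3c, a small GTPase of vesicle docking, was highest in Lamp5 interneurons, at 597 CPM in the library labelled MR1 KO and 657 CPM in the 5XFAD library, and lowest in granule neurons, at 74.3 CPM in MR1 KO-labelled and 69.4 CPM in 5XFAD nuclei. Its paralog Rab3a was 128 CPM in the library labelled MR1 KO and 127 CPM in the 5XFAD library in Lamp5 interneurons and lowest in Rorb and Npsr1 neurons, at 84.6 CPM in MR1 KO-labelled and 63.3 CPM in 5XFAD nuclei. Rph3a, the Rab3 effector rabphilin, was likewise highest in Lamp5 interneurons, at 230.4 CPM in the library labelled MR1 KO and 210.4 CPM in the 5XFAD library, and lowest in CA1 neurons, at 9.48 CPM in MR1 KO-labelled and 13.4 CPM in 5XFAD nuclei. Syp, the vesicle membrane protein synaptophysin, ranged over 151 to 246 CPM in MR1 KO-labelled and 131 to 218 CPM in 5XFAD types.

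The vesicular glutamate transporters load the vesicle. Slc17a7 (VGLUT1) had 265 to 333 CPM in the 4 excitatory types and 54.6 to 83.7 CPM in the 4 interneuron types in the library labelled MR1 KO, and 226 to 262 CPM and 53.6 to 77.7 CPM in the 5XFAD library. Slc17a6 (VGLUT2) was highest in Rmst and Meis1 neurons, at 98.9 CPM (88.1 to 111) in the library labelled MR1 KO and 43.7 CPM (32.9 to 56.9) in the 5XFAD library, and next in Tshz2 neurons, at 57.4 CPM in MR1 KO-labelled and 34.4 CPM in 5XFAD nuclei. The Rmst and Meis1 nuclei of known sex were 747 female and 30 male in the library labelled MR1 KO and 7 female and 162 male in the 5XFAD library, so for them a difference between libraries cannot be told apart from one between these mice. Slc17a8 (VGLUT3), known from interneurons with Cck, in Adarb2 interneurons was 53.5 CPM (43.6 to 65.1) in the library labelled MR1 KO and 51.6 CPM (39.97 to 65.5) in the 5XFAD library. In oligodendrocytes and microglia it had 2 UMIs in the library labelled MR1 KO, both in oligodendrocytes, and 0 UMIs in the 5XFAD library. Rmst and Meis1 neurons had 1.3 CPM in MR1 KO-labelled and 32.6 CPM in 5XFAD nuclei. In Adarb2 interneurons of single mice Slc17a8 was 30.5 CPM in the female and 108 CPM in the male mouse labelled MR1 KO, against 42.6 CPM in the female and 69 CPM in the male 5XFAD mouse. Every mouse was above the Sst interneurons, the next named type, at 6.65 CPM in MR1 KO-labelled and 10.9 CPM in 5XFAD nuclei.

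In all, 6 of the 40 genes had a highest neuron type at least 4 times the median type in both libraries, namely Syt2, Cplx3, Slc17a8, Slc17a6, Sv2c and Unc13c. The share of all genes that do so was not counted. Some medians were near the floor, with 0.23 CPM in MR1 KO-labelled and 0.69 CPM in 5XFAD types for Cplx3. Slc17a8 had medians of 0.77 and 1.33 CPM in the same order. For Sv2c and Unc13c the highest type differed between the libraries. The highest type was the same in both libraries for 21 of 40. Across the 15 types, which share their library's depth and free RNA, the Spearman correlation between libraries had a median of 0.729 over the genes, the lowest being -0.257 for Napb, which varied little, and the highest 0.957 for Sv2b. Over the same 4 excitatory and 4 interneuron types as for Sv2a, excitatory types were wholly above in both libraries for Slc17a7, Syt7 and Stxbp5. For Syt7 this did not hold in each mouse. The female mouse labelled MR1 KO had 128 CPM of it in Pvalb interneurons and 104 CPM in CA1 neurons. In Tshz2 neurons, outside these types, Stxbp5 had 121 CPM in the 5XFAD library, the lowest of the 15 types. Stxbp5 is the gene of tomosyn, which competes with synaptobrevin for syntaxin. Stxbp5 was 186 to 222 CPM in excitatory types and 139 to 171 CPM in interneurons in the library labelled MR1 KO, and 184 to 227 CPM and 133 to 162 CPM in the 5XFAD library. For the other 36 genes the classes overlapped in at least 1 library.

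RNA released from broken cells adds UMIs to every droplet, so each level was read against oligodendrocytes and microglia of the same library, which lack synaptic vesicle release. The 40 genes summed to between 9564 and 13807 CPM in neuron types of either library. In oligodendrocytes they summed to 4732 CPM in the library labelled MR1 KO and 4136 CPM in the 5XFAD library, and in microglia to 5222 CPM in the library labelled MR1 KO and 4597 CPM in the 5XFAD library. Per nucleus, 13 genes were at least 2 times the higher of these glial levels in all 15 neuron types and both libraries: Snap25, Stxbp5, Syt1, Syn1, Syn2, Syn3, Unc13a, Unc13b, Rims1, Rims2, Bsn, Pclo and Erc2. Rab3a and Vamp1 reached it in 0 of the 15 types, Vamp2 in 1 and Sncb, the gene of beta-synuclein, in 4. For these genes the neuronal level cannot be separated from free RNA at this resolution, and the same holds for the level of Sv2b in interneurons, which lay below that in microglia, with 92 CPM in MR1 KO-labelled and 96.8 CPM in 5XFAD nuclei. Sv2a in interneurons was near the higher glial level, which was 165 CPM in the library labelled MR1 KO and 203 CPM in the 5XFAD library, and its excitatory levels were below it. Slc17a7 in excitatory types was likewise near its glial 272 CPM in the library labelled MR1 KO and 223 CPM in the 5XFAD library, while its interneuron levels were well below.

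The genes nearest to glia were among the shorter ones. In CPM, the median neuron type over the higher glial level was 8.48 (MR1 KO-labelled) and 8.19 (5XFAD) for Rims2 and 6.32 (MR1 KO-labelled) and 8.63 (5XFAD) for Rims1. It was 0.398 (MR1 KO-labelled) and 0.547 (5XFAD) for Vamp2, 0.376 (MR1 KO-labelled) and 0.402 (5XFAD) for Rab3a and 0.497 (MR1 KO-labelled) and 0.524 (5XFAD) for Sncb. Rims1 spans 519.7 kb, Rims2 486 kb and Erc2 856 kb of the genome, against 3.9 kb for Vamp2, 4.0 kb for Rab3a and 7.74 kb for Sncb. Of the 20 genes shorter than the median of 60.0 kb, 14 were below the glial CPM in both libraries, against 1 of 20 longer genes. At least 2 times the glial CPM in both was reached by 1 of 20 shorter and 9 of 20 longer genes. Over the 40 genes the Spearman correlation of length with this ratio was 0.796 in the library labelled MR1 KO and 0.782 in the 5XFAD library, and over all genes with enough UMIs it was 0.245 over 16517 genes in the library labelled MR1 KO and 0.224 over 16311 genes in the 5XFAD library. These genes share the nuclei and their depth, so the values are descriptions. Whether intronic reads were counted is not given in the sources used here, and its part in this was not tested.

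**Figure D3:**
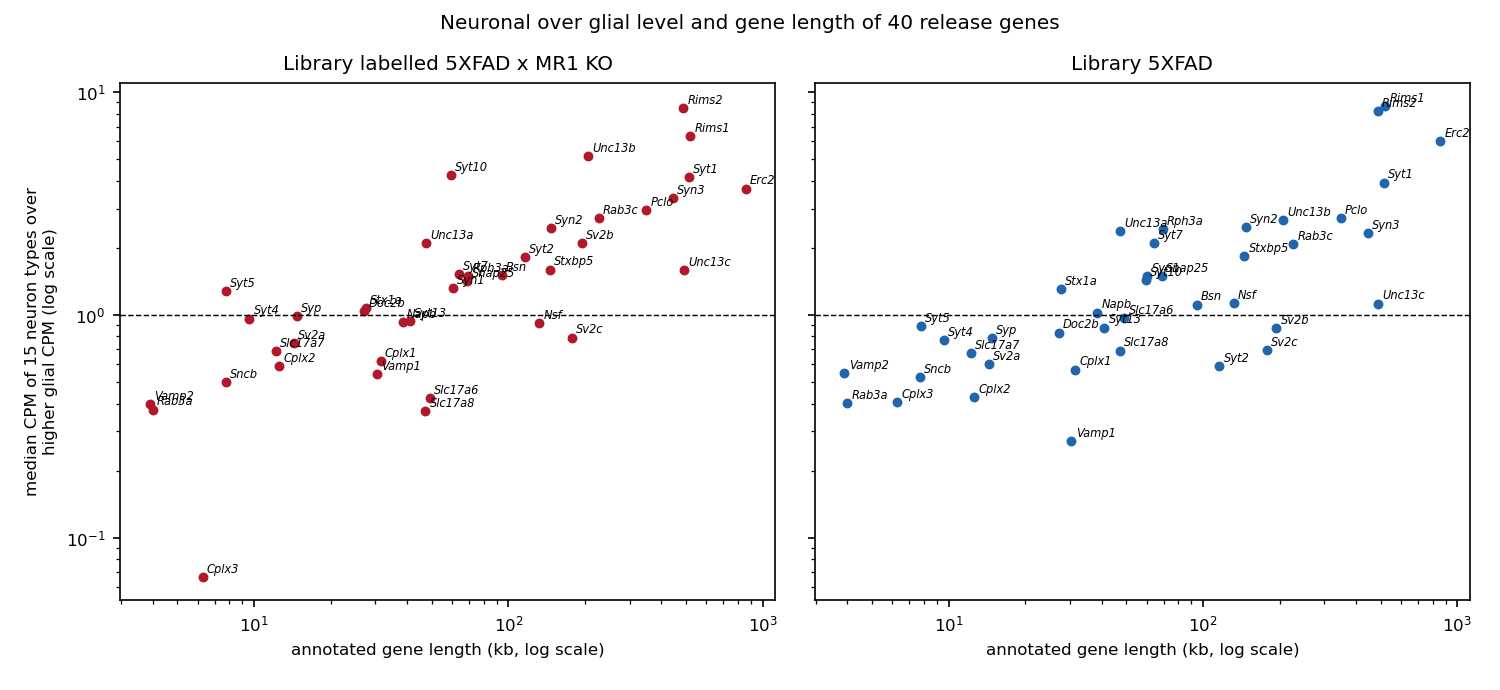
Gene length in kb (horizontal axis, log scale) against the median neuron type's CPM over the higher of the oligodendrocyte and microglia CPM (vertical axis, log scale), 1 point per gene, for the library labelled MR1 KO (left) and the 5XFAD library (right). Short genes such as Vamp2, Rab3a and Sncb lie below 1, and long genes such as Rims1, Rims2 and Erc2 lie above 3.

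The libraries were compared in the 8 named neuron types with at least 100 nuclei in each, over genes with at least 50 UMIs in both together, as the ratio of CPM in the library labelled MR1 KO over the 5XFAD library. A gene was counted as higher or lower at a ratio of 1.5 or more or of its inverse or less, with no test. In dentate granule neurons 7 of 38 genes were higher (12.1% of all genes were) and 1 was lower (4.51%). In CA1 neurons 2 of 37 were higher (4.34%) and 0 lower (1.67%), and in CA2/CA3 neurons 3 of 37 were higher (4.36%) and 0 lower (1.63%). The shares in parentheses are those of all genes in the same type. In deep-layer neurons 2 of 33 were higher (10.9%) and 1 lower (5.06%). Among interneurons, 1 of 33 was higher (6.16%) and 0 lower (3.01%) in the Pvalb type, and 0 of 33 higher (8.44%) and 1 lower (2.66%) in the Sst type. In the Adarb2 type 2 of 33 were higher (6.98%) and 1 lower (2.13%), and in the Lamp5 type 4 of 31 were higher (7.28%) and 0 lower (3.28%). Over the 275 pairs of gene and type, 21 were higher and 4 lower, so most release genes were within 1.5-fold in every type. Scaled instead to the median gene of each type, 10 pairs were higher and 9 lower.

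The median log2 ratio of the genes was 0.24 in dentate granule neurons, beside 0.14 for all genes there. It was 0.06 in CA1 (all genes 0.09), 0.13 in CA2/CA3 (0.08) and -0.03 in deep-layer neurons (0.09). In interneurons it was 0.16 in the Pvalb (0.05), 0.08 in the Sst (0.10), 0.11 in the Adarb2 (0.07) and 0.15 in the Lamp5 type (0.04). The difference from all genes ran from -0.12 in deep-layer neurons to 0.11 in Pvalb interneurons.

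**Figure D4:**
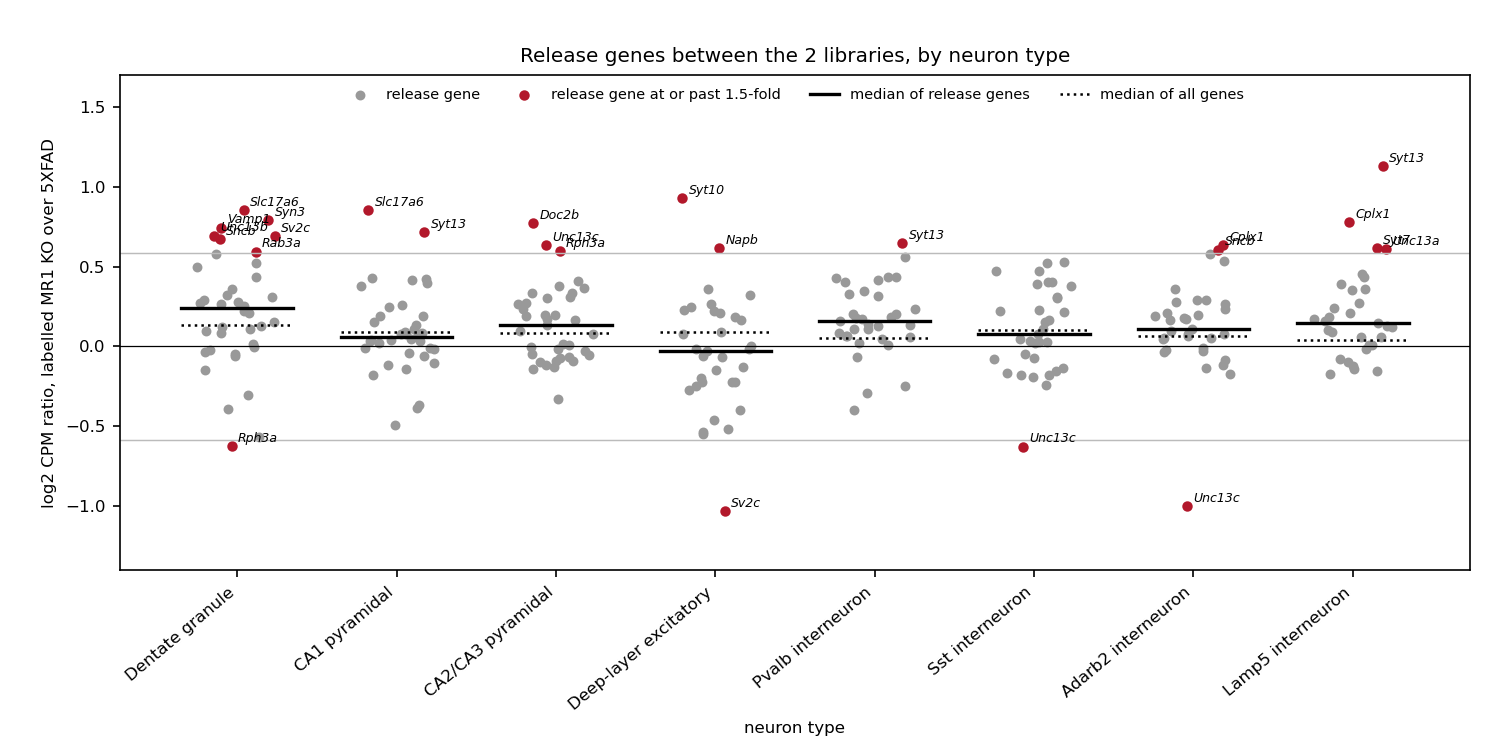
Log2 ratio of CPM in the library labelled MR1 KO over the 5XFAD library (vertical axis) for each release gene with at least 50 UMIs, 1 point per gene, in the 8 compared neuron types (horizontal axis). Grey lines mark 1.5-fold, black bars the median of the release genes and dotted bars that of all genes. Most points lie between the grey lines, and dentate granule neurons have the most genes above the upper one, 7 of 38, beside 12.1% of all genes there.

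Dentate granule neurons had more release genes past 1.5-fold than any other type. All genes, too, had their largest higher share there, 12.1%. The release genes were led by the synapsin Syn3, the vesicle protein Sv2c and the primer Unc13b. Syn3 was 387 CPM in the female and 175 CPM in the male mouse labelled MR1 KO, against 162 CPM in the female and 198 CPM in the male 5XFAD mouse, and the ratio over all nuclei was 1.73 (1.61 to 1.87). Sv2c was 179.8 CPM in the female and 85.6 CPM in the male mouse labelled MR1 KO, against 86.4 CPM in the female and 67.6 CPM in the male 5XFAD mouse, with a ratio of 1.62 (1.45 to 1.8). Unc13b was 128 CPM in the female and 66.6 CPM in the male mouse labelled MR1 KO, against 61.9 CPM in the female and 59.1 CPM in the male 5XFAD mouse, with a ratio of 1.62 (1.43 to 1.84). For Syn3 and Unc13b the female mouse labelled MR1 KO stood alone, and the male labelled MR1 KO was close to or among the 5XFAD mice. For Sv2c the same female was the highest, and the male labelled MR1 KO was just below the female 5XFAD mouse. Rph3a was lower, with 69.1 CPM in the female and 71 CPM in the male mouse labelled MR1 KO, against 113 CPM in the female and 125 CPM in the male 5XFAD mouse, a ratio of 0.65 (0.582 to 0.726). Both mice labelled MR1 KO were below both 5XFAD mice for it. Sncb was 97 CPM in the female and 87 CPM in the male mouse labelled MR1 KO, against 60.8 CPM in the female and 54.1 CPM in the male 5XFAD mouse, with a ratio of 1.6 (1.41 to 1.81). Rab3a was 154 CPM in the female and 143 CPM in the male mouse labelled MR1 KO, against 102 CPM in the female and 67.6 CPM in the male 5XFAD mouse, with a ratio of 1.51 (1.37 to 1.67). Vamp1 had a ratio of 1.68 (1.32 to 2.16). Slc17a6, with 4.82 CPM in MR1 KO-labelled and 2.61 CPM in 5XFAD nuclei, had one of 1.85 (1.01 to 3.57). Both levels were below its higher glial level, 11.4 CPM in oligodendrocytes labelled MR1 KO and 2.69 CPM in 5XFAD microglia. In oligodendrocytes the ratio of Slc17a6 was 6.74 (1.47 to 62.6), from 11 UMIs labelled MR1 KO and 2 5XFAD UMIs. The part of free RNA in it was not tested. For Sncb, Rab3a and Vamp1 both mice labelled MR1 KO were above both 5XFAD mice. In CPM, every mouse was below the higher glial level of its library for these genes as well. The mice of a library shared a capture and are not independent of it.

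The granule nuclei of the libraries differed in other ways. Their median depth was 1979 UMIs in the library labelled MR1 KO and 3439 UMIs in the 5XFAD library. Of the 2 granule clusters, cluster 0, led by C1ql2 and Mylk3, had 3029 nuclei from the library labelled MR1 KO and 177 from the 5XFAD library, and cluster 2, led by Glis3 and Prox1, had 1036 from the library labelled MR1 KO and 1288 from the 5XFAD library. Within cluster 0 the ratio of Syn3 was 1.65 (1.31 to 2.09) and within cluster 2 it was 1.19 (1.07 to 1.32). Sv2c had 1.84 (1.3 to 2.69) and 1.04 (0.889 to 1.21) in clusters 0 and 2, and Unc13b 1.15 (0.832 to 1.64) and 1.19 (0.999 to 1.42). Rab3a had 1.01 (0.783 to 1.32) and 1.3 (1.13 to 1.48). Within a cluster, then, Unc13b and Rab3a were under 1.5-fold in both, and Syn3 and Sv2c were over it only in cluster 0. Rph3a was below 1 in both, at 0.536 (0.397 to 0.739) and 0.751 (0.646 to 0.872). In granule nuclei the 10 oligodendrocyte markers summed to 582 CPM in the library labelled MR1 KO and 553 CPM in the 5XFAD library, and the 10 microglia markers to 581 CPM in the library labelled MR1 KO and 469.9 CPM in the 5XFAD library. No marker of either list was at 0, against sums of 7900 CPM or more in those glia themselves, and their part in these ratios was not tested.

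**Figure D5:**
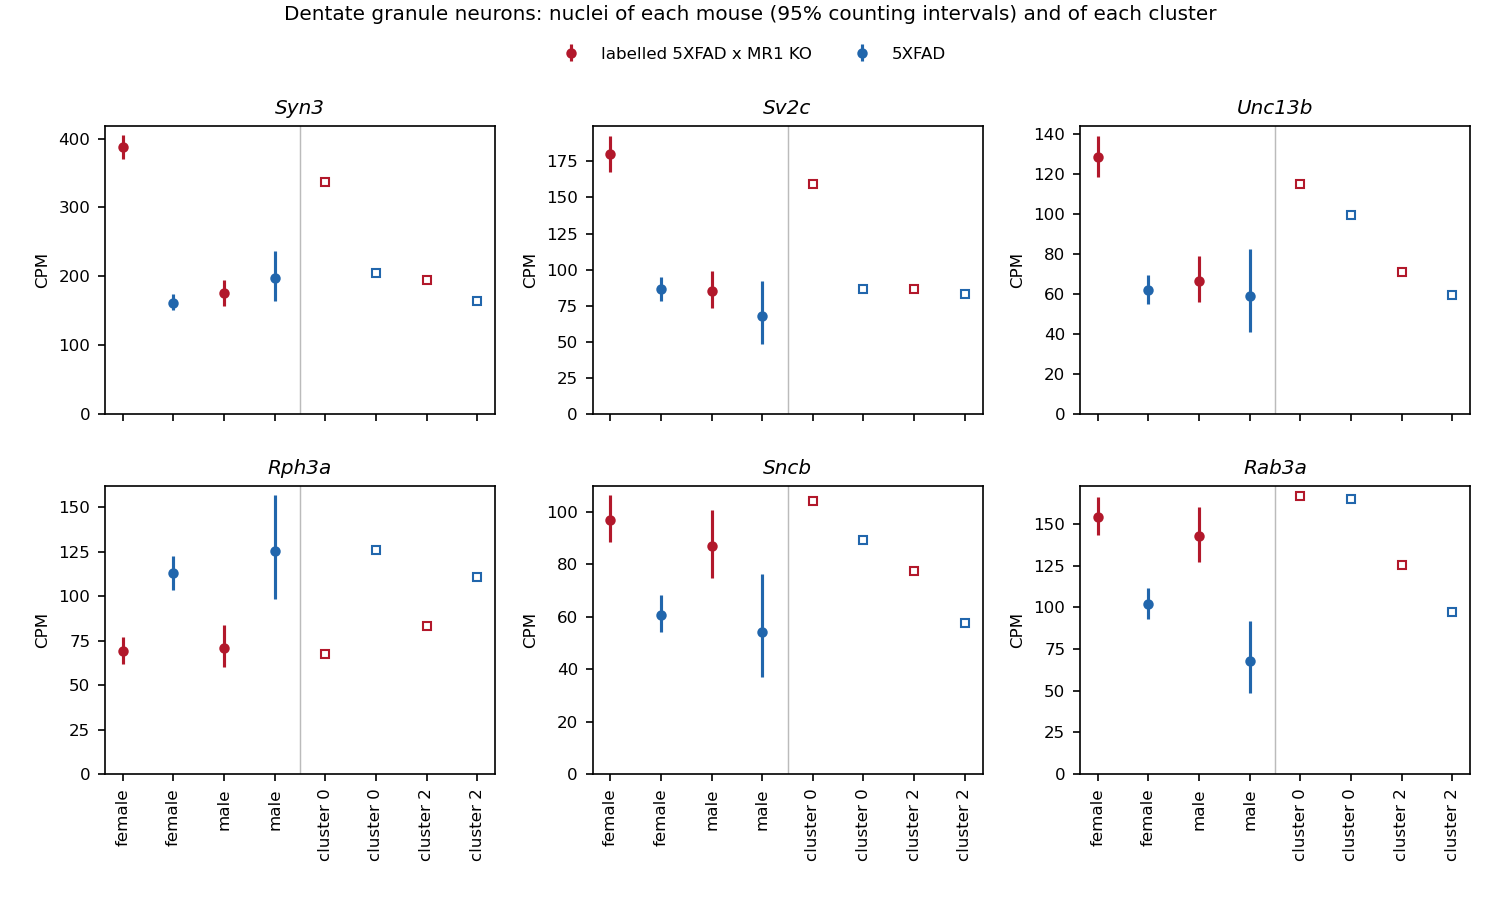
CPM (vertical axis) of 6 release genes in dentate granule nuclei of each mouse (filled points with 95% counting intervals, left of the grey line) and of clusters 0 and 2 (open squares), the library labelled MR1 KO (red) left of the 5XFAD library (blue) in each pair. Syn3 is 387 CPM in the female mouse labelled MR1 KO and between 162 and 198 CPM in the other mice, and Rph3a is lower in both mice labelled MR1 KO.

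In the other excitatory types few genes passed 1.5-fold. In CA1 neurons Syt13 had 68.2 CPM in the library labelled MR1 KO and 41.5 CPM in the 5XFAD library, a ratio of 1.64 (1.45 to 1.86), with 71.5 CPM in the female and 61.8 CPM in the male mouse labelled MR1 KO, against 38.6 CPM in the female and 49.4 CPM in the male 5XFAD mouse. Slc17a6 had a ratio of 1.81 (1.02 to 3.26) there, from levels of 3.63 CPM in MR1 KO-labelled and 2.0 CPM in 5XFAD nuclei. As in granule neurons, both levels were below the higher glial level of the same library. In CA2/CA3 neurons Rph3a had a ratio of 1.51 (1.33 to 1.72), but the sexes pointed in opposite directions, with 78.7 CPM in the female and 49 CPM in the male mouse labelled MR1 KO, against 35.9 CPM in the female and 62.5 CPM in the male 5XFAD mouse. Doc2b had 1.72 (1.09 to 2.77) and Unc13c 1.56 (0.914 to 2.72) in these neurons, the interval of Unc13c including 1. In deep-layer neurons Syt10 had 1.9 (1.26 to 2.83) and Napb 1.53 (1.19 to 1.95), with both mice labelled MR1 KO above both 5XFAD mice. This rested on few UMIs in the male labelled MR1 KO. He had 3 UMIs of Syt10 (41.4 CPM), against 38.2 CPM in the female 5XFAD mouse. Of Napb he had 6 UMIs (82.8 CPM), against 77.5 CPM in the male 5XFAD mouse. Sv2c was lower, at 0.468 (0.204 to 0.949), from 10.6 CPM in MR1 KO-labelled and 22.7 CPM in 5XFAD nuclei. By mouse Sv2c was 11.9 CPM in the female and 13.8 CPM (1 UMI) in the male labelled MR1 KO. It was 42.6 CPM in the female and 9.78 CPM in the male 5XFAD mouse, so the sexes pointed in opposite directions. The deep-layer nuclei of known sex were 136 female and 18 male in the library labelled MR1 KO. In the 5XFAD library they were 167 female and 186 male.

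In interneurons Syt13 was again among the higher genes, at 1.57 (1.15 to 2.15) in the Pvalb type and 2.23 (1.31 to 3.99) in the Lamp5 type. With CA1 neurons it passed 1.5-fold in 3 of the 8 types. The complexin Cplx1 had 1.56 (1.11 to 2.23) in the Adarb2 and 1.74 (1.06 to 2.97) in the Lamp5 type. In Lamp5 interneurons Syt7 had 1.55 (0.997 to 2.46) and Unc13a 1.54 (0.97 to 2.53), both with intervals that include 1. Unc13c was lower in Sst interneurons, at 0.647 (0.461 to 0.909), and in Adarb2 interneurons, at 0.498 (0.311 to 0.791). In the Adarb2 type Sncb had 1.53 (1.15 to 2.04). The paralog that marks each type moved less, with a ratio of 0.758 (0.574 to 0.998) for Syt2 in Pvalb, 1.04 (0.755 to 1.44) for Slc17a8 in Adarb2 and 1.19 (0.931 to 1.52) for Sv2c in Lamp5 interneurons.

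Some genes had a ratio on the same side of 1 in most types. Sncb, Rab3a, Vamp2, Napb, Slc17a7 and Sv2a had a ratio above 1 in 8 of 8 types, and Syt1, Rims1 and Rims2 below 1 in 7 of 8. Against the median ratio of all genes of the type, Sncb and Vamp2 were still above in 8 of 8 types, Rab3a and Slc17a7 in 7, Sv2a in 6 and Napb in 5, and Rims1 was below in 8. The ratio of Sncb ran from 1.13 to 1.6. By mouse, both mice labelled MR1 KO were above both 5XFAD mice for Sncb in 8 of 8 types, for Sv2a in 7, for Rab3a in 6 and for Snap25, Vamp2, Syt13 and Slc17a7 in 5. For Rims1 and Rims2 both were below in 4 of 8 types and above in 0. How many of all genes reach such numbers of types was not counted. Some of these calls were close or rested on few UMIs. In Pvalb interneurons Sncb was 78.9 CPM in the male mouse labelled MR1 KO and 78.8 CPM in the female 5XFAD mouse. In deep-layer neurons the male mouse labelled MR1 KO had 7 UMIs of Sncb in 18 nuclei. Over the members, both mice labelled MR1 KO were above in 18 of 38 genes in granule (33.5% of all genes), 10 of 37 in CA1 (30.9%), 13 of 37 in CA2/CA3 (29.2%) and 8 of 33 in deep-layer neurons (21.2%). They were above in 12 of 33 in Pvalb (20.2%), 11 of 33 in Sst (24.2%), 12 of 33 in Adarb2 (23.4%) and 9 of 31 in Lamp5 interneurons (22.2%). They were below in 2 genes in granule (13.3%), 4 in CA1 (10.8%), 4 in CA2/CA3 (10.5%) and 6 in deep-layer neurons (14%). They were below in 2 in Pvalb (15.5%), 5 in Sst (11%), 1 in Adarb2 (13.5%) and 3 in Lamp5 interneurons (14.6%). Among all genes, too, both mice labelled MR1 KO were above more often than below in every type, and no test was made.

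Glia of the same libraries leaned with the neurons for 5 of the 6 genes above 1 throughout. The ratio of Sncb was 1.39 (1.09 to 1.76) in oligodendrocytes, 1.51 (1.06 to 2.19) in microglia and 1.89 (1.16 to 3.11) in astrocytes. In oligodendrocytes, microglia and astrocytes Vamp2 had 1.66, 1.48 and 1.15, Rab3a 1.48, 1.3 and 1.15, and Napb 1.29, 1.39 and 1.51. Slc17a7 had 1.33, 1.22 and 1.09, and Sv2a had 0.813, 1.06 and 0.937 in the same 3 types. Sncb, Rab3a, Vamp2, Napb and Slc17a7 were thus above 1 in these glia as well, and Sv2a was below 1 in 2 of the 3. The interval of Napb included 1 in all 3 types. Those of Vamp2, Rab3a and Slc17a7 included 1 in astrocytes, and that of Slc17a7 also in microglia. In oligodendrocyte precursors the same 5 genes were above 1, with Sncb at 2.56 (1.62 to 4.18), and Sv2a was 0.64 (0.438 to 0.933). In neurons the ratio of Sv2a was 1.39 (1.18 to 1.63) in Sst interneurons, 1.25 (1.06 to 1.48) in Pvalb interneurons and 1.2 (1.08 to 1.34) in granule neurons. The part of free RNA in the neuronal ratios was not tested. Shorter and longer genes also differed. In granule neurons the median log2 ratio was 0.32 for shorter and 0.09 for longer members, beside 0.20 and -0.02 for all shorter and longer genes. In CA2/CA3 neurons it was 0.26 and -0.02, and in Sst interneurons 0.31 and 0.04, beside 0.11 and 0.02 for all genes in CA2/CA3 and 0.13 and 0.06 in Sst. The shorter genes had the higher median in each of the 8 types, both among the members and among all genes.

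Another 54 genes of vesicle release and recycling were read in the same way, with the share of all genes in the same type in parentheses. In granule neurons 3 of 49 with enough UMIs were higher (12.1%) and 1 was lower (4.51%). In CA1 neurons 3 of 51 were higher (4.34%) and 2 lower (1.67%), and in CA2/CA3 neurons 2 of 51 were higher (4.36%) and 2 lower (1.63%). In deep-layer neurons 2 of 46 were higher (10.9%) and 3 lower (5.06%). In Pvalb interneurons 5 of 46 were higher (6.16%) and 1 was lower (3.01%), and in Sst interneurons 5 of 46 were higher (8.44%) and 0 lower (2.66%). In Adarb2 interneurons 3 of 49 were higher (6.98%) and 0 lower (2.13%), and in Lamp5 interneurons 6 of 43 were higher (7.28%) and 0 lower (3.28%). The median log2 ratios of these other genes ran from 0.06 to 0.15. Dnm1, the dynamin that pinches off vesicle membrane after release, had a ratio of 1.51 (1.38 to 1.65) in granule neurons, 1.6 (1.28 to 2.0) in Adarb2 and 1.67 (1.23 to 2.3) in Lamp5 interneurons.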

How the data were processed

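Single-nucleus RNA of pooled hippocampal tissue (about 20 mg) was measured in 2 libraries. The deposited files hold raw UMI counts per gene and barcode, produced with Cell Ranger 7.0.0 per the file headers; the submitters' processing notes name mm10 and Seurat. For the annotation release, and for intronic reads, the treatment is not given in the sources used here. Deposited counts were used unchanged. Barcodes with at least 500 genes and under 5% mitochondrial UMIs were kept, and doublets were marked with Scrublet in Scanpy 1.11.5 at a rate of 0.8% per 1000 barcodes, which removed 21.5% in the library labelled MR1 KO and 20.3% in the 5XFAD library. Nuclei were clustered (2500 variable genes, 40 components, Leiden resolution 1.5, leidenalg 0.10.2, 34 clusters) without the 40 genes, Xist, Tsix, Y-linked and mitochondrial genes. Clusters were named only where their top 50 genes held at least 3 markers of 1 type; 3 clusters that met this, led by Foxp2 and Tshz1, Fn1 and Rab38, and Otof and Smoc1, were left unnamed, a choice made after seeing the data. Counts were summed per library and type.

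Levels are CPM with exact Poisson intervals. Ratios have exact conditional binomial intervals, and log2 ratios a prior count of 0.5 (scipy 1.17.1). The glial level is the higher of oligodendrocytes and microglia, with a count of 0 set to 3. Nuclei with 2 or more Xist UMIs and none from the Y chromosome were taken as female, and those with 1 or more Y-linked UMIs and no Xist as male. On simulated counts of CA1 neurons (13416 genes), 96 of 100 doubled and 92 of 95 halved genes passed 1.5-fold, as did 184 of 13221 unchanged ones, and intervals covered the true ratio in 95.9%. Values are printed for paralog groups, for genes whose highest type was at least 4 times the median type, and for up to 4 genes per direction and type ranked by the interval bound nearest to 1; the other genes printed were chosen after their values were seen. The members, marker lists and gene lists were chosen with earlier results of these data known, and the sub-clusters, the merging of clusters into types, the minimum of 100 nuclei, the count of mice that do not overlap and the alternatives within single clusters were chosen after seeing the data. Gene lengths come from GENCODE M21. Alternatives covered the filters, doublets, scaling, sexes, depth, free RNA and the count minimum.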

Additional observations from a re-analysis of the deposited data

Results flagged for a closer look

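In 5 of 275 pairs of gene and neuron type, the female mice and the male mice moved in opposite directions, each with a counting interval that excluded 1. Over all genes with enough UMIs in the same 8 types this held for 1056 of 78029 pairs, or 1.35%, so the share among the release genes was near that of all genes. The values are ratios of CPM in the mouse labelled MR1 KO over the 5XFAD mouse of the same sex. The difference between the sexes was not tested, and each ratio sets 1 mouse against 1 mouse. In dentate granule neurons the sensor Syt7 was 1.23 (1.13 to 1.33) for female mice and 0.717 (0.598 to 0.862) for male mice. The primer Unc13c was 0.426 (0.313 to 0.574) for female mice and 2.95 (1.43 to 7.06) for male mice in the same neurons. In CA2/CA3 neurons the active zone gene Erc2 was 1.05 (1.02 to 1.09) for female mice and 0.90 (0.861 to 0.941) for male mice. In Adarb2 interneurons the sensor Syt1 was 1.07 (1.02 to 1.12) for female mice and 0.882 (0.805 to 0.966) for male mice, and the vesicle GTPase Rab3c was 1.31 (1.15 to 1.5) for female mice and 0.731 (0.593 to 0.903) for male mice.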

How the results depend on the processing

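No paired analysis was possible because each group has 1 library. Of 275 pairs of gene and type, 21 were higher and 4 lower by 1.5-fold in the library labelled MR1 KO. Scaling to the median gene gave 10 higher and 9 lower, and no count minimum gave 36 higher and 15 lower of 319 pairs. Lower pairs were 14 in male mice only, 9 after subtracting the glial level and 2 after thinning each nucleus to 1000 UMIs, and the causes were not tested. The median log2 ratio of the genes ranged over the alternatives from 0.08 to 0.33 in granule, -0.03 to 0.15 in CA1, 0.05 to 0.19 in CA2/CA3 and -0.12 to 0.16 in deep-layer neurons. In interneurons it ranged from 0.10 to 0.27 in the Pvalb, -0.03 to 0.16 in the Sst, 0.04 to 0.19 in the Adarb2 and -0.11 to 0.21 in the Lamp5 type. Turned in direction were the log2 ratios of Syn3 in granule neurons (-0.18 in male mice), Slc17a6 in CA1 neurons (-0.32 in female mice) and Rph3a in CA2/CA3 neurons (-0.35 in male mice). Of the other values of single genes under these alternatives, 203 stayed within the counting interval and 112 did not. The highest neuron type stayed the same in both libraries for 19 of 40 genes after thinning, 33 after subtracting the glial level and 29 with doublets kept. Depth limits Cplx3, Slc17a6 and Slc17a8 outside their main types, and genes near the glial level cannot be resolved from free RNA. With 1 library per group, library, pool of mice and genotype cannot be told apart.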

Other observations

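Genes of vesicle release and recycling outside the 40 also differed between the libraries, and those named here were picked after their values were seen. Synpr, the gene of the vesicle protein synaptoporin, had 35.8 CPM in MR1 KO-labelled and 19 CPM in 5XFAD nuclei of CA1, a ratio of 1.88 (1.58 to 2.25). Both CA1 levels were below the higher glial level of Synpr in the same library, and the part of free RNA was not tested. The ratio of Synpr was 2.05 (1.43 to 2.93) in deep-layer neurons and 2.25 (1.38 to 3.83) in Lamp5 interneurons. It was above 1 in both sexes in each of these types. In Sst interneurons Synpr was lower, with 695 CPM in MR1 KO-labelled and 1011 CPM in 5XFAD nuclei, a ratio of 0.687 (0.638 to 0.74), and there the ratio was 0.544 (0.49 to 0.604) for female mice and 1.02 (0.89 to 1.16) for male mice. In Pvalb interneurons its ratio was 0.835 (0.671 to 1.04). Cacna1e, the R-type calcium channel, had a ratio of 2.21 (1.89 to 2.6) in Sst interneurons, but the ratio was 3.79 (3.02 to 4.81) for female mice and 0.507 (0.348 to 0.73) for male mice. Dnm3, a dynamin of the synapse, was lower in granule neurons, with 91.9 CPM in MR1 KO-labelled and 143 CPM in 5XFAD nuclei, a ratio of 0.645 (0.585 to 0.711), and below 1 in both sexes. In Pvalb interneurons it was higher, with 427 CPM in MR1 KO-labelled and 297 CPM in 5XFAD nuclei, a ratio of 1.44 (1.27 to 1.63).

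Slc32a1, the vesicular GABA transporter, is the inhibitory counterpart of the Slc17a genes. In excitatory CA1 neurons it had 9.94 CPM in MR1 KO-labelled and 15.9 CPM in 5XFAD nuclei, a ratio of 0.625 (0.478 to 0.813), and in CA2/CA3 neurons 5.25 CPM in MR1 KO-labelled and 11.1 CPM in 5XFAD nuclei, a ratio of 0.473 (0.324 to 0.681). These excitatory levels were below the higher glial CPM of Slc32a1 in the same library. They cannot be separated from free RNA, whose part in these ratios was not tested. In interneurons, where the transporter works, the ratios were above 1. The Sst type had 181 CPM in MR1 KO-labelled and 122 CPM in 5XFAD nuclei, a ratio of 1.48 (1.23 to 1.78). By sex the ratio there was 1.81 (1.42 to 2.34) for female mice and 1.02 (0.704 to 1.48) for male mice. Ratios were 1.34 (1.08 to 1.67) in the Pvalb, 1.44 (1.05 to 2.01) in the Lamp5 and 1.27 (1.02 to 1.57) in the Adarb2 type. Syt6, a synaptotagmin, had 10.6 CPM in MR1 KO-labelled and 60.4 CPM in 5XFAD nuclei in deep-layer neurons. Its ratio there was 0.175 (0.0788 to 0.342) over all nuclei and 2.73 (0.733 to 12.4) for female mice and 0.153 (0.00384 to 0.868) for male mice. These ratios compare libraries of 1 pool each and were not tested.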
